A study of Mus musculus with 8 samples.

Results

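The Slc25 genes encode the carriers of the inner mitochondrial membrane. They were taken from the expression table of 8 mouse kidney samples as every gene whose symbol is Slc25a followed by a number, leaving out Slc25a20, the carnitine carrier of fatty acid oxidation, and Slc25a17, a peroxisomal carrier. That gave 40 genes of the 15948 in the table. The samples were kidney tissue labelled Arhgef11Sglt2 DOCA (3 libraries) and Sglt2Cre DOCA (5 libraries), from a study of Arhgef11, blood pressure and kidney injury whose title names a systemic knockout and one specific to the proximal tubule. By its name the control group carries a Cre recombinase directed by Sglt2 (gene Slc5a2), which takes up glucose in the first part of the proximal tubule, and the other group adds the Arhgef11 allele. Both groups carry the label DOCA, in this field the usual name of deoxycorticosterone acetate, a salt-retaining steroid that raises blood pressure, so no kidney without DOCA was analysed here. The labels give no age, sex or strain, and do not say that each library is a separate animal. The p-values therefore set group differences against the spread between these libraries, part of which may be technical, and may not extend to animals. Below, n counts libraries.

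Carriers of this family share a repeated pattern of membrane helices and exchange or import metabolites across a membrane that is otherwise closed to them. They move ATP out of the matrix and ADP and phosphate into it, pass the intermediates of the citric acid cycle and of the malate-aspartate shuttle, and bring in amino acids, nucleotides, cofactors, iron and glutathione. The proximal tubule and the thick ascending limb are among the cells richest in mitochondria in the body, and ammonia production from glutamine and glucose synthesis in the proximal tubule both depend on such transport.

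The promoter windows of 4 carriers on which the results below turn are shown here: Slc25a21, the one carrier that passed the test, Slc25a13, which came next, and Slc25a22 and Slc25a34, which had the largest positive differences. Each window is 300 bases, from 250 before to 50 after a transcription start, printed 5′ to 3′ on the gene's strand, from RefSeq on GRCm38.p6, which is another build than that of the deposited values. Capitals mark matches, on either strand, to AGGTCA (a nuclear receptor element), CACGTG (the E-box) or CCAAT. Of the 2 listed starts of Slc25a21 and the 3 of Slc25a22, the window that held a match is shown, and which start was used in these kidneys was not measured.
Slc25a21, chr12:57197423-57197722, minus strand: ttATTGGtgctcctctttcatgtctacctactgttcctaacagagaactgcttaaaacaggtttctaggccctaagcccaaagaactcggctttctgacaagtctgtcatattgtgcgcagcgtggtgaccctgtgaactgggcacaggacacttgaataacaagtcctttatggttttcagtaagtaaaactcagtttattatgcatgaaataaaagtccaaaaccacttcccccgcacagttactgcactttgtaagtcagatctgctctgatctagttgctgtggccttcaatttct
Slc25a13, chr6:6217124-6217423, minus strand: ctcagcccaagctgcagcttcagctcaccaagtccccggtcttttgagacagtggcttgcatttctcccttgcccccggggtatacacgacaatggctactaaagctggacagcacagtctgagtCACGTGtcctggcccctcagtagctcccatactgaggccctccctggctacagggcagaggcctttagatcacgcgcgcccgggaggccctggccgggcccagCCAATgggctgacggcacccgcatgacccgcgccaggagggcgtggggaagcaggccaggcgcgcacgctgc
Slc25a22, chr7:141435326-141435625, minus strand: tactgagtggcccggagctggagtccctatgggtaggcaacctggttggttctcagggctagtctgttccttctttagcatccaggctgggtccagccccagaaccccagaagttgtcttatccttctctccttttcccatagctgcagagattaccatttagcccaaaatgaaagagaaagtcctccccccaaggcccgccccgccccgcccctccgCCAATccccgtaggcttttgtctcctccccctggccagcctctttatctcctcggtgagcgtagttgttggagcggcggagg
Slc25a34, chr4:141623785-141624084, minus strand: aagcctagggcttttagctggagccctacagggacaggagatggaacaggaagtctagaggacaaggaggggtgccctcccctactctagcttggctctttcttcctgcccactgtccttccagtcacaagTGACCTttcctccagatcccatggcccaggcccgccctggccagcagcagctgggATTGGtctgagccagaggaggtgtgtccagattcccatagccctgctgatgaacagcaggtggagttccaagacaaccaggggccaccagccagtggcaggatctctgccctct

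These letters are common in promoters. CCAAT stood in all 4 windows shown, but those of Slc25a21 and Slc25a22 were picked because they held a match. The other listed windows of these genes held none, so this count cannot be set against a share of windows. CCAAT was in 37.4% of the 32851 promoter windows of the table and in 21 of the 41 windows listed for 31 of the carriers. The E-box in the Slc25a13 window was in 7.15% of all windows and in 7 of those 41. AGGTCA, which stood in the Slc25a34 window, was in 16.3% of all windows and in 4 of the 41, those of Slc25a34, Slc25a39, Slc25a45 and Slc25a47. The direct repeat of AGGTCA with 1 base between the copies, bound by PPAR with RXR, and TCAAGGTCA, bound by estrogen-related receptors, each of which contains AGGTCA, were in none of the 41 windows and in 0.0396% and 0.423% of all windows. A match is a description of letters and not a binding site, and these motifs were chosen with the results known.

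Levels below are normalized counts, obtained by turning back the log2-scale values in the deposited table. They summed to between 43040000 and 46680000 per library over all genes. The spacing of the lowest values put the depth at about 51300000 to 57900000 reads in the Arhgef11Sglt2 libraries and 33000000 to 59500000 reads in the Sglt2Cre libraries. Arhgef11 itself had 2935, 3919 and 3905 normalized counts in the Arhgef11Sglt2 libraries, against 3479 to 3928 in the Sglt2Cre libraries, so the whole-gene level in kidney tissue did not check the labels. Summed markers of the early proximal tubule (8 of 8 measured) ran from 264192 to 396496 normalized counts in Arhgef11Sglt2 libraries and from 414677 to 465557 in Sglt2Cre libraries. Those of its last segment (7 of 7) ran from 26525 to 31405 in Arhgef11Sglt2 libraries and from 42393 to 98844 in Sglt2Cre libraries, and thick ascending limb markers (5 of 5) from 224997 to 269671 and from 263497 to 311169 in the same order of groups. The groups did not overlap for either proximal tubule sum, while those of the thick ascending limb overlapped slightly. In limma 2, 4 and 1 of these markers passed, all of them lower, as 1.59% of all genes did. In each of these lists 1 marker had a positive log2 difference. Single genes lay without overlap and lower in 8.14% of all genes, and no such share was computed for sums. Summed markers of B lymphocytes and plasma cells (4 of 4, of which 2 passed as lower) did not overlap, with 684 to 2752 normalized counts in Arhgef11Sglt2 libraries and 2803 to 11989 in Sglt2Cre libraries. Those of the remaining cell types listed overlapped between the groups, among them those of brown fat, which neighbours the kidney, with 34 to 354 normalized counts in Arhgef11Sglt2 libraries and 2 to 3667 in Sglt2Cre libraries. Distal convoluted tubule markers (4 of 4) also overlapped and none passed, with a median log2 difference of -0.32. No measured marker was at 0 in every library, and the part of these shifts in any carrier result was not tested. In bulk kidney RNA, fewer cells of a type and less RNA per cell cannot be told apart.

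Means of the 40 carriers over the 8 libraries ran from 40.9 to 40170 normalized counts. Per kilobase of the longest coding transcript, the ADP/ATP carrier Slc25a5 led, with 31710 normalized counts per kilobase in Arhgef11Sglt2 kidneys and 32800 in Sglt2Cre kidneys. The phosphate carrier Slc25a3 followed with 15720 and 17390, the glutathione carrier Slc25a39 with 9329 and 10840, the second ADP/ATP carrier Slc25a4 with 7128 and 7511 and the dicarboxylate carrier Slc25a10 with 5718 and 4812, each given for Arhgef11Sglt2 and then Sglt2Cre kidneys. Over single libraries Slc25a5 (27064 to 36637 per kilobase) lay clear of Slc25a3 (14405 to 18644), and Slc25a3 clear of Slc25a39 (8993 to 11294). Slc25a39 and Slc25a4 (5792 to 8966) did not overlap, by a narrow margin, while Slc25a4 and Slc25a10 (4340 to 6368) overlapped. Together Slc25a3, Slc25a4 and Slc25a5 made up 54.3% to 55.7% of the family's summed level per kilobase in Arhgef11Sglt2 libraries and 54.3% to 58.7% in Sglt2Cre libraries. The level of Slc25a5 is uncertain, because 49.39% of the 31-base words of its transcripts also occur in transcripts of other genes, for the most part unnamed gene models. No other carrier shared more than 7.78%. At the other end, Slc25a43, Slc25a53 and Slc25a47 were under 50 normalized counts per kilobase in both groups.

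**Figure D1:**
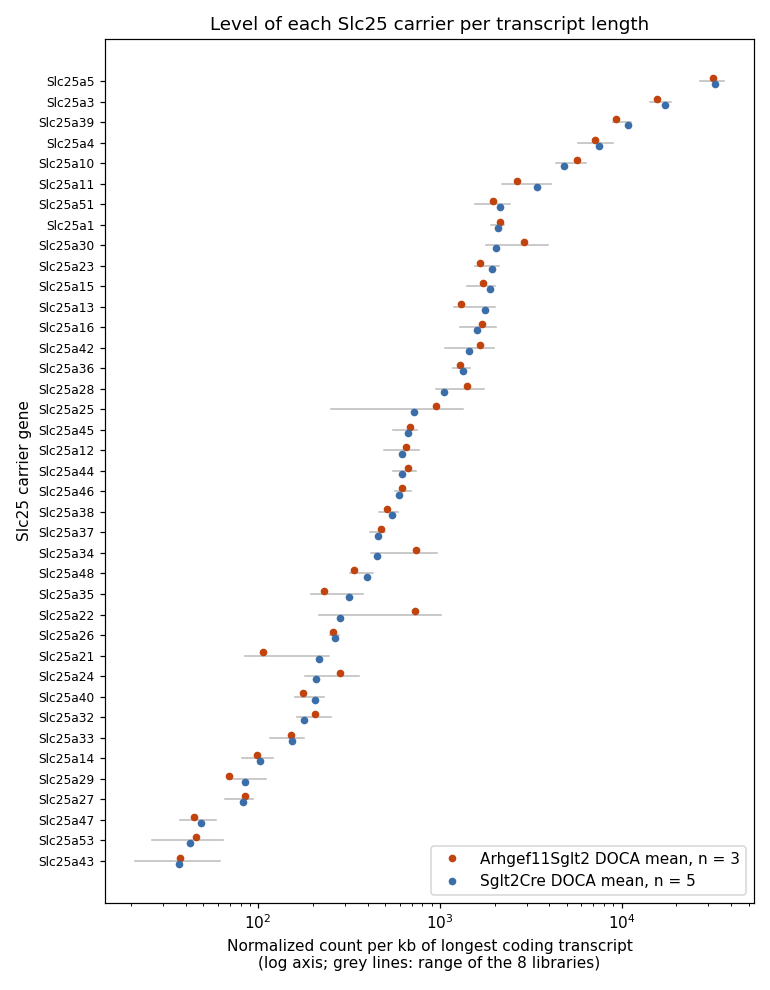
Mean normalized count per kilobase of longest coding transcript for 39 of the 40 carriers (x axis, log scale; one carrier per row), in Arhgef11Sglt2 DOCA libraries (red, n = 3) and Sglt2Cre DOCA libraries (blue, n = 5), with grey lines for the range of the 8 libraries. Slc25a5, Slc25a3 and Slc25a39 stand highest, and the group means of Slc25a21 and Slc25a22 lie far apart.

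Between the groups, 1 of the 40 carriers changed: Slc25a21, the carrier of 2-oxoadipate and related dicarboxylates, was 2.04-fold lower than in Sglt2Cre kidneys. The remaining 39 did not pass. The test was limma on the deposited log2-scale values, with Benjamini-Hochberg adjustment over all 15948 genes at 0.05. Over all genes 354 passed, 2.22% of those tested, with 100 higher (0.627%) and 254 lower (1.59%), or 168 and 225 when libraries were set to equal totals. The 1 of 40 is 2.5%, near that background, so the count says nothing particular about carriers. At an unadjusted p under 0.05 there were 13 carriers, 5 higher and 8 lower, or 32.5%, against 21.1% of all genes (9.04% higher, 12.1% lower). Libraries of the groups did not overlap for 7 carriers, 2 higher and 5 lower, or 17.5%, against 14.3% of all genes (6.2% higher, 8.14% lower). The median log2 difference of the 40 was -0.01, as it was over all genes, with 18 positive and 22 negative.

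**Figure D2:**
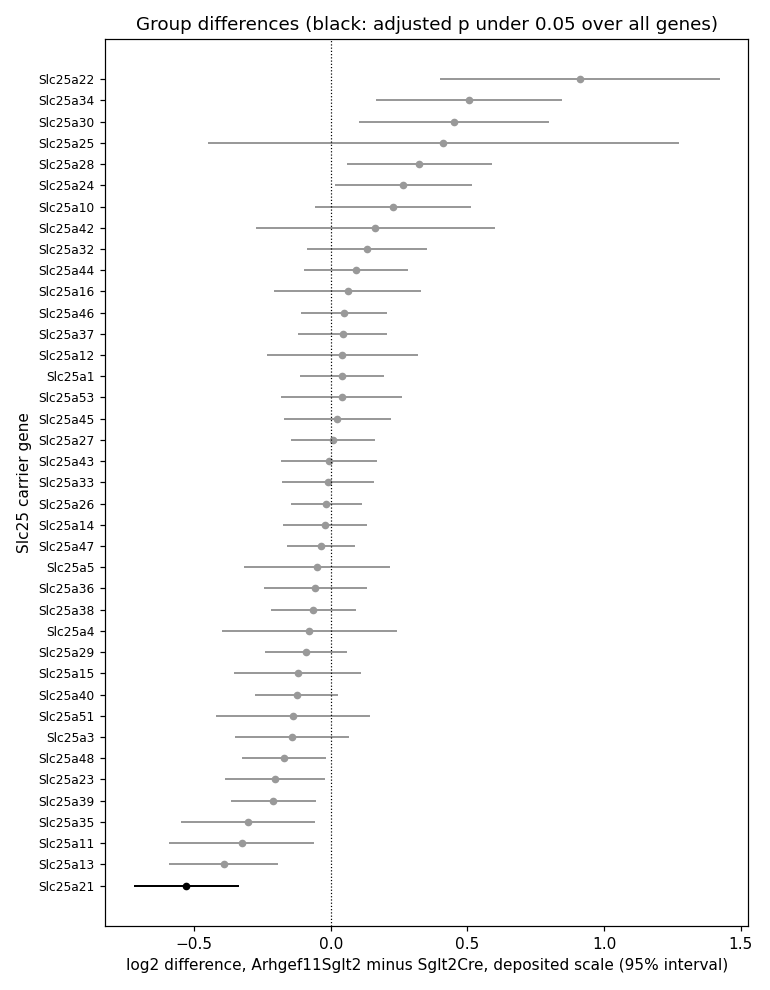
Log2 difference, Arhgef11Sglt2 minus Sglt2Cre, on the deposited scale (x axis) with its 95% interval from limma for 39 of the 40 carriers (rows, in order of the difference). Slc25a21, in black, was the carrier with an adjusted p under 0.05, at -0.53, and Slc25a22 had the largest positive difference, 0.91.

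Of the 6 carriers of citrate, dicarboxylates and oxoacids, Slc25a21 fell and the others did not pass. Including Slc25a21, 1 was higher and 3 were lower at an unadjusted p under 0.05, against 9.04% and 12.1% of all genes. The median log2 difference of the 6 was -0.13. Slc25a21 brings 2-oxoadipate, made in the breakdown of lysine and tryptophan, into the matrix. It had 289, 319 and 223 normalized counts in the Arhgef11Sglt2 libraries, and 445, 603, 594, 644 and 544 in Sglt2Cre replicates 1 to 5. All 3 Arhgef11Sglt2 libraries were below every Sglt2Cre library, and Sglt2Cre replicate 1 came nearest to them. The group means were 277 ± 49.2 (SD, n = 3) in Arhgef11Sglt2 kidneys and 566 ± 76.5 (SD, n = 5) in Sglt2Cre kidneys, a 2.04-fold lower level. On the deposited scale, which compresses low genes, Slc25a21 differed by -0.53 in log2 (SE 0.09, 95% interval -0.72 to -0.34; limma adjusted p = 0.02). An exact permutation test, two-sided, gave 0.0179, the smallest p that 3 against 5 libraries allow. That p needs groups that do not overlap, as in 14.3% of all genes, and its share over all genes was not computed. The same holds for Slc25a13, Slc25a22, Slc25a30 and Slc25a39 below, and lack of overlap was itself a reason to name a carrier. The exact permutation p-values were not adjusted over genes. The call rested on single libraries: the limma adjusted p was 0.0704 without Arhgef11Sglt2 replicate 3, 0.0603 without Sglt2Cre replicate 4 and 0.0535 without Sglt2Cre replicate 5.

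Slc25a11, which exchanges 2-oxoglutarate for malate and is one of the carriers of the malate-aspartate shuttle, had 4873, 5017 and 3783 normalized counts in Arhgef11Sglt2 libraries. The Sglt2Cre libraries had 5632, 7031, 6162, 5268 and 5123. The groups did not overlap, but Arhgef11Sglt2 replicate 2 and Sglt2Cre replicate 5 almost met. The log2 difference of -0.33 (SE 0.12) had a limma adjusted p of 0.157 and an exact permutation p of 0.0357. Slc25a34, whose substrate is not settled, went the other way with 1250, 2091 and 2571 normalized counts in Arhgef11Sglt2 libraries, against 1185, 1197, 1314, 1190 and 1112 in Sglt2Cre libraries. Replicate 1 of the Arhgef11Sglt2 group lay within the Sglt2Cre range and replicates 2 and 3 well above it. Its means were 1.64-fold apart and the log2 difference was 0.51 (SE 0.15, limma adjusted p = 0.103; exact permutation p = 0.0357). Without Arhgef11Sglt2 replicate 1 the difference was 0.74, with a limma adjusted p of 0.00503. Without any other single library the limma adjusted p of Slc25a34 ran from 0.154 to 0.346. Its relative Slc25a35 averaged 845 ± 161 normalized counts in Arhgef11Sglt2 kidneys (SD, n = 3) and 1149 ± 177 in Sglt2Cre kidneys (SD, n = 5; limma adjusted p = 0.155). The citrate carrier Slc25a1 averaged 3582 and 3469 in Arhgef11Sglt2 and Sglt2Cre kidneys, with a 95% interval of the log2 difference from -0.11 to 0.19.

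Among amino acid carriers, in a list that also held the choline carrier Slc25a48, none of 8 passed. At an unadjusted p under 0.05, 1 was higher and 2 were lower, Slc25a48 among the lower, against 9.04% and 12.1% of all genes. The median log2 difference of the 8 was -0.08. The 2 lowest p-values belonged to carriers that went opposite ways. Slc25a13 (citrin), an aspartate-glutamate carrier of the malate-aspartate shuttle, had 3933, 4602 and 3713 normalized counts in Arhgef11Sglt2 libraries. It had 5305, 6265, 5568, 5335 and 5109 in Sglt2Cre libraries, so every Arhgef11Sglt2 library was below every Sglt2Cre library. The mean was 26.0% lower, the log2 difference -0.39 (SE 0.09, 95% interval -0.59 to -0.20), the limma adjusted p 0.0512 and the exact permutation p 0.0179. That adjusted p lay just outside the threshold, and over 17 alternative fits it ran from 0.0328 to 0.21, under 0.05 in 6 of them.

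Slc25a22, the glutamate carrier that brings glutamate into the matrix together with a proton, had the largest difference of any carrier. It had 960, 2349 and 2847 normalized counts in Arhgef11Sglt2 libraries, against 895, 605, 775, 875 and 829 in Sglt2Cre libraries. Replicates 2 and 3 of the Arhgef11Sglt2 group were far above all others, while replicate 1 was just above the highest Sglt2Cre library. Group means were 2052 ± 978 (SD, n = 3) in Arhgef11Sglt2 kidneys and 796 ± 116 (SD, n = 5) in Sglt2Cre kidneys, a 2.58-fold higher level. The log2 difference was 0.91 (SE 0.23, 95% interval 0.41 to 1.42), the limma adjusted p 0.0696 and the exact permutation p 0.0179. Without Arhgef11Sglt2 replicate 1 the limma adjusted p was 0.00363, with a log2 difference of 1.28. Without any other single library the limma adjusted p ran from 0.11 to 0.25.

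The basic amino acid carrier Slc25a29 was low, with 135, 135 and 142 normalized counts in Arhgef11Sglt2 libraries and 144, 142, 217, 149 and 180 in Sglt2Cre libraries. Although the groups did not overlap, the closest pair of libraries from the 2 groups was equal after rounding. The limma adjusted p was 0.456 and the exact permutation p 0.125.

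Slc25a12 (aralar), the other aspartate-glutamate carrier, averaged 4134 ± 916 normalized counts in Arhgef11Sglt2 kidneys (SD, n = 3) and 3945 ± 308 in Sglt2Cre kidneys (SD, n = 5; limma adjusted p = 0.879). The ratio of Slc25a12 to Slc25a13 counts was 0.792, 0.956 and 1.32 in Arhgef11Sglt2 replicates 1 to 3 and between 0.659 and 0.796 in Sglt2Cre libraries. Replicates 2 and 3 therefore had a larger aralar share than any Sglt2Cre library, and replicate 1 did not. The choline carrier Slc25a48 was 15.2% lower in Arhgef11Sglt2 kidneys (limma adjusted p = 0.182). For the ornithine carrier Slc25a15, the glycine carrier Slc25a38 and the branched-chain amino acid carrier Slc25a44 the limma adjusted p ran from 0.53 to 0.626.

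**Figure D3:**
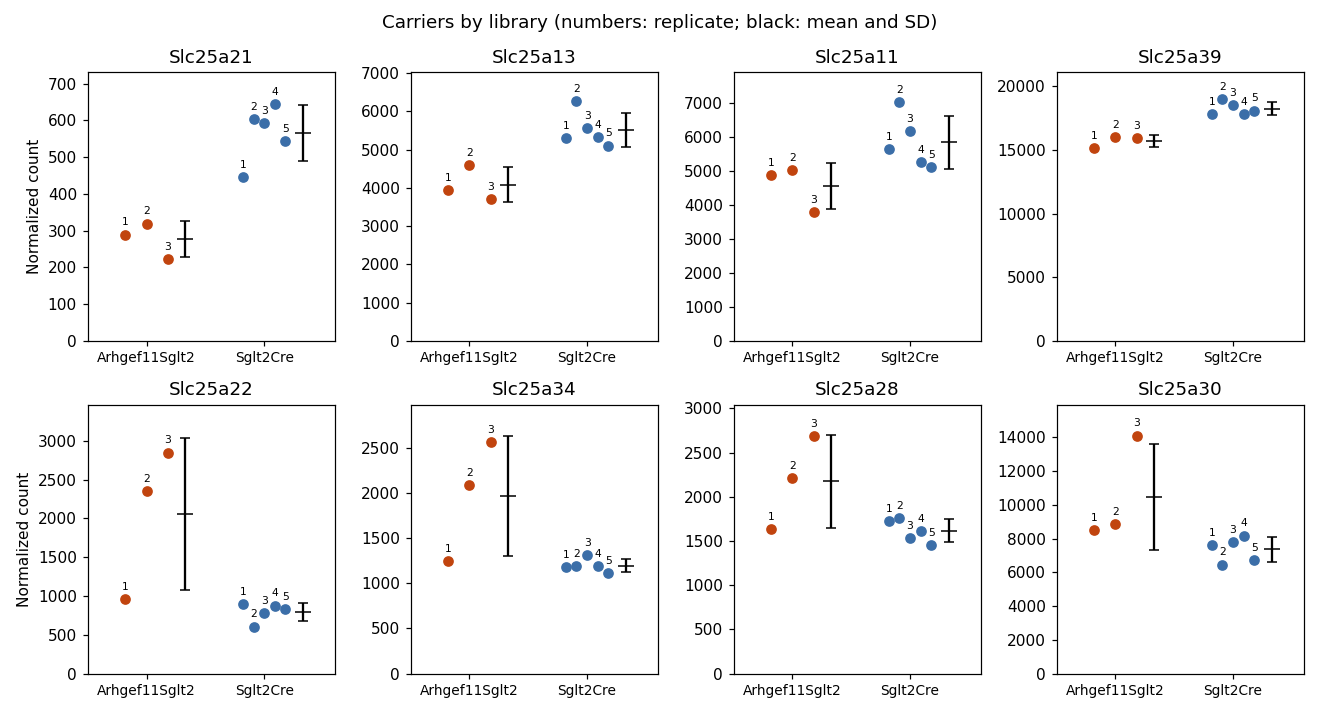
Normalized counts (y axis, from 0) of 8 carriers in the Arhgef11Sglt2 libraries (red) and Sglt2Cre libraries (blue), with replicate numbers above the points and the mean ± SD in black (n = 3 and n = 5). The upper row shows carriers whose Arhgef11Sglt2 libraries all lay below the Sglt2Cre libraries, and in the lower row replicates 2 and 3 of the Arhgef11Sglt2 group lay above all Sglt2Cre libraries.

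The carriers of ATP, ADP and phosphate made up most of the family's summed level per kilobase, and none of the 6 passed. Of these, 1 was higher and 1 lower at an unadjusted p under 0.05, against 9.04% and 12.1% of all genes. The median log2 difference of the 6 was -0.06. Slc25a5 averaged 39323 ± 5039 normalized counts in Arhgef11Sglt2 kidneys (SD, n = 3) and 40678 ± 3995 in Sglt2Cre kidneys (SD, n = 5), with a 95% interval of the log2 difference from -0.31 to 0.21. Slc25a4 averaged 13720 ± 2607 in Arhgef11Sglt2 kidneys and 14459 ± 2080 in Sglt2Cre kidneys (interval -0.40 to 0.24). Slc25a3 averaged 25345 ± 2222 in Arhgef11Sglt2 kidneys and 28025 ± 1907 in Sglt2Cre kidneys (interval -0.35 to 0.06). All 3 intervals included 0.

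The calcium-regulated ATP-Mg/phosphate carriers set the adenine nucleotide content of the matrix. Slc25a24 had 1224, 715 and 950 normalized counts in Arhgef11Sglt2 libraries, against 663, 618, 765, 808 and 720 in Sglt2Cre libraries. Replicates 1 and 3 of the Arhgef11Sglt2 group were above all Sglt2Cre libraries and replicate 2 within their range, with a log2 difference of 0.27 (SE 0.11, limma adjusted p = 0.205). Slc25a23 had 5330, 6120 and 5229 in Arhgef11Sglt2 libraries and 7141, 6515, 6483, 6378 and 5856 in Sglt2Cre libraries. Here replicate 2 again lay within the Sglt2Cre range, the others below it, and the log2 difference was -0.20 (SE 0.08, limma adjusted p = 0.189). Slc25a25 varied widely within groups, from 2003 to 4709 normalized counts in Arhgef11Sglt2 libraries and from 888 to 4307 in Sglt2Cre libraries (limma adjusted p = 0.575).

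Of 8 carriers of nucleotides, cofactors and vitamins, none passed in limma, with a median log2 difference of -0.01. The folate carrier Slc25a32 had 1030, 1111 and 1492 in Arhgef11Sglt2 libraries and 1007, 970, 1180, 970 and 1144 in Sglt2Cre libraries, with replicate 3 of the Arhgef11Sglt2 group alone above the Sglt2Cre range (limma adjusted p = 0.459). The coenzyme A carrier Slc25a42 had 3423, 6275 and 6348 in Arhgef11Sglt2 libraries, against 3517 to 5548 in Sglt2Cre libraries, so its Arhgef11Sglt2 libraries lay on both sides of the Sglt2Cre range. Slc25a16 (linked to coenzyme A), Slc25a26 (S-adenosylmethionine), Slc25a33 and Slc25a36 (pyrimidine nucleotides) and Slc25a51 (NAD) had limma adjusted p-values from 0.564 to 0.961.

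Iron and glutathione carriers (4 measured) had none past the threshold and a median log2 difference of -0.04. Of these, 1 was higher and 1 lower at an unadjusted p under 0.05, against 9.04% and 12.1% of all genes. The abundant glutathione carrier Slc25a39 was tightly grouped, with 15153, 16039 and 15964 normalized counts in Arhgef11Sglt2 libraries and 17833, 19031, 18541, 17807 and 18107 in Sglt2Cre libraries. The gap between the groups was wider than the range of either, and the mean was 13.9% lower. In log2 it differed by -0.21 (SE 0.07, 95% interval -0.36 to -0.06; limma adjusted p = 0.128, exact permutation p = 0.0179). Mitoferrin-2, Slc25a28, had 1633, 2215 and 2685 in Arhgef11Sglt2 libraries against 1728, 1759, 1531, 1608 and 1454 in Sglt2Cre libraries. Again replicate 1 lay among the Sglt2Cre libraries and replicates 2 and 3 above them. The log2 difference of 0.32 (SE 0.12) had a limma adjusted p of 0.16, and of 0.0208 without Arhgef11Sglt2 replicate 1. Without any other single library the limma adjusted p ran from 0.185 to 0.506. The exact permutation p was 0.0536. Mitoferrin-1, Slc25a37, averaged 1975 ± 138 normalized counts in Arhgef11Sglt2 kidneys (SD, n = 3) and 1902 ± 140 in Sglt2Cre kidneys (SD, n = 5; limma adjusted p = 0.768).

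Of the 3 relatives of the uncoupling proteins none passed. Slc25a30, the kidney mitochondrial carrier, had 8477, 8864 and 14103 normalized counts in Arhgef11Sglt2 libraries, against 7603, 6451, 7800, 8173 and 6723 in Sglt2Cre libraries. All 3 Arhgef11Sglt2 libraries were above the Sglt2Cre libraries, but replicates 1 and 2 by little, and the log2 difference was 0.45 (SE 0.15, limma adjusted p = 0.14; exact permutation p = 0.0179). Slc25a14 had 213, 148 and 175 in Arhgef11Sglt2 libraries and 218, 154, 202, 183 and 170 in Sglt2Cre libraries, where replicate 2 of the Arhgef11Sglt2 group was below every Sglt2Cre library and the others lay within their range (limma adjusted p = 0.889). Among the 5 carriers with other or unassigned roles, Slc25a46, a protein of the outer membrane, had 2469, 2647 and 3041 in Arhgef11Sglt2 libraries and 2573, 2622, 2610, 2647 and 2555 in Sglt2Cre libraries (limma adjusted p = 0.723). Slc25a47 had 90.5, 91.9 and 69.6 in Arhgef11Sglt2 libraries and 92.3, 80.1, 87.5, 111.4 and 88.7 in Sglt2Cre libraries, again overlapping (limma adjusted p = 0.748).

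The Arhgef11Sglt2 libraries differed among themselves in the carriers. Replicate 1 had 19 of the 40 carriers below the whole Sglt2Cre range and 6 above it. Replicate 2 had 9 below and 12 above, and replicate 3 had 13 below and 12 above. For 7 carriers, Slc25a10, Slc25a12, Slc25a16, Slc25a28, Slc25a34, Slc25a42 and Slc25a44, replicates 2 and 3 were above every Sglt2Cre library while replicate 1 was not. In Slc25a12, Slc25a16, Slc25a42 and Slc25a44 replicate 1 was below every Sglt2Cre library. Such counts were not made over all genes, so whether these patterns are particular to carriers was not tested. Leaving out Arhgef11Sglt2 replicate 1 also raised the count of all genes past the threshold from 354 to 1334. The excluded carnitine carrier Slc25a20, with 2742, 4078 and 3780 normalized counts in Arhgef11Sglt2 libraries and 1748 to 2452 in Sglt2Cre libraries, had the same order of replicates 1 and 2 but all 3 above the Sglt2Cre range (limma adjusted p = 0.0425). Its adjusted p was 0.0517 to 0.164 without any one library other than Arhgef11Sglt2 replicate 1. The summed share of the 40 carriers in all normalized counts was 0.403%, 0.459% and 0.464% in Arhgef11Sglt2 replicates 1 to 3 and 0.413% to 0.46% in Sglt2Cre libraries. Summed early proximal tubule markers were 264192, 396496 and 272502 normalized counts in the same 3 Arhgef11Sglt2 libraries, so they were lowest in replicate 1 and highest in replicate 2, and their part in these carrier patterns was not tested.

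**Figure D4:**
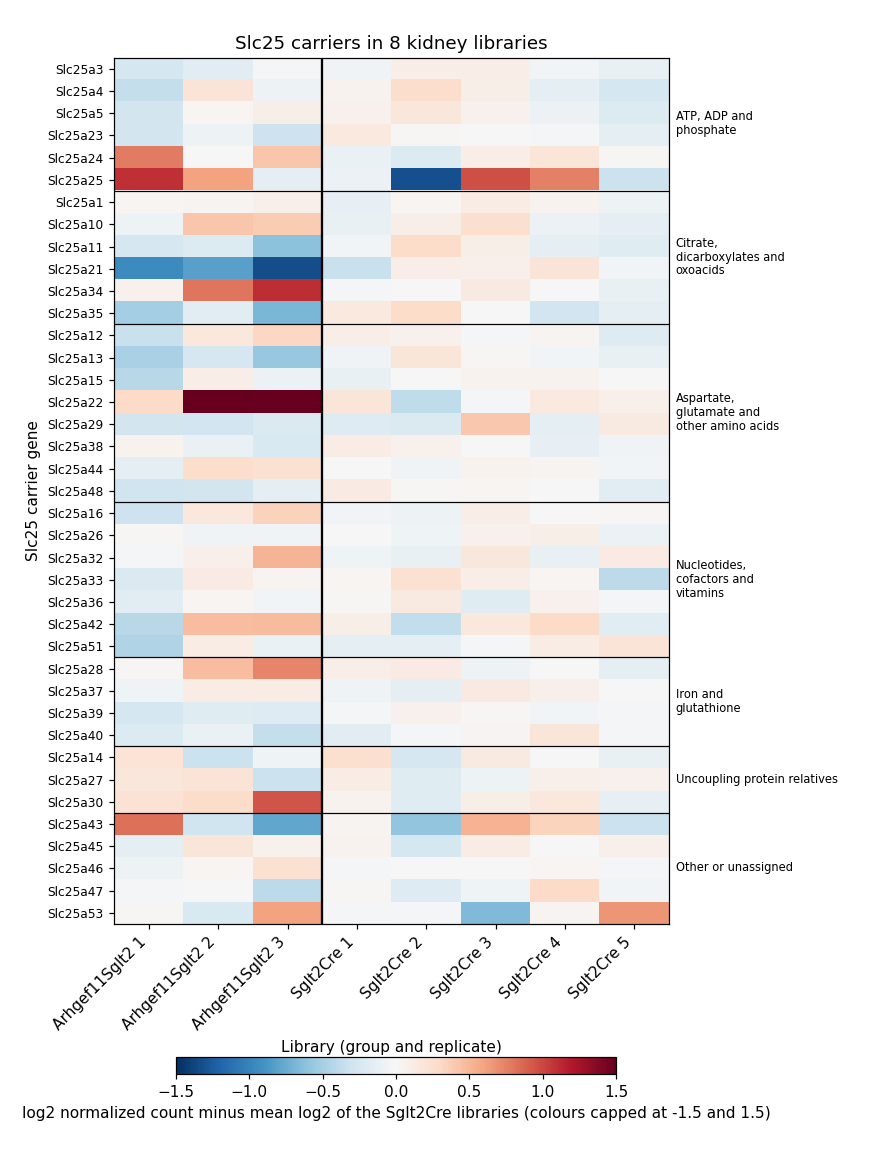
Each of 39 carriers (rows, grouped by role) in each library (columns, Arhgef11Sglt2 replicates 1 to 3 left of Sglt2Cre replicates 1 to 5), as log2 normalized count minus the mean log2 of the Sglt2Cre libraries, with colours capped at 1.5 in either direction. Slc25a21 is blue in all 3 Arhgef11Sglt2 libraries, while Slc25a22, Slc25a34 and Slc25a28 are deeper red in replicates 2 and 3 than in replicate 1.

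The library names hold numbers in 2 separate ranges, a lower one (Arhgef11Sglt2 replicates 1 and 2, Sglt2Cre replicates 1 to 3) and an upper one (Arhgef11Sglt2 replicate 3, Sglt2Cre replicates 4 and 5), and what the ranges stand for is not stated. Within the lower range the log2 difference was -0.43 for Slc25a21, -0.38 for Slc25a13, 0.72 for Slc25a22 and 0.30 for Slc25a34. Within the upper range, with a single Arhgef11Sglt2 library and no test, it was -0.70, -0.44, 1.32 and 0.90 for the same carriers in the same order. Where the groups do not overlap, as for Slc25a21, Slc25a13 and Slc25a22, both ranges must give 1 direction. The abundant ADP/ATP carriers differed in sign between the ranges, with -0.21 in the lower and 0.22 in the upper range for Slc25a5, and -0.21 and 0.13 for Slc25a4.

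Other genes around the carriers were read from lists of their own. Of 28 enzymes that make or use what the carriers move, 1 passed as higher and 2 as lower in limma, against 0.627% and 1.59% of all genes. At an unadjusted p under 0.05, 3 were higher and 9 lower, against 9.04% and 12.1% of all genes. Their median log2 difference was -0.03. Reported here are Arg2, which was higher, and Coasy, which was lower. Arg2, the mitochondrial arginase that makes ornithine, had 1269, 972 and 1292 normalized counts in Arhgef11Sglt2 libraries and 614, 468, 442, 318 and 265 in Sglt2Cre libraries. Every Arhgef11Sglt2 library was above every Sglt2Cre library, with a log2 difference of 0.94 (SE 0.14, limma adjusted p = 0.0173), while the ornithine carrier Slc25a15 had a difference of -0.12 (95% interval -0.35 to 0.11). Coasy, the last enzyme of coenzyme A synthesis, had 3007, 3339 and 3500 in Arhgef11Sglt2 libraries and 4196, 4053, 4335, 4607 and 5060 in Sglt2Cre libraries (log2 difference -0.39, SE 0.08, limma adjusted p = 0.0467). These calls rested on single libraries. The limma adjusted p of Arg2 was 0.067 without Arhgef11Sglt2 replicate 3 and 0.0565 without Sglt2Cre replicate 4. That of Coasy was 0.0513 to 0.114 without any one library other than Sglt2Cre replicate 2.

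None of 20 other inner membrane transporters, such as the pyruvate carrier subunits and the calcium uniporter, passed in limma, with 1 higher and 10 lower at an unadjusted p under 0.05 and a median log2 difference of -0.20. Over all genes 9.04% were higher and 12.1% lower at that unadjusted p, with a median of -0.01. None of 19 genes of the carrier import path and outer membrane pores passed (0 higher and 4 lower at an unadjusted p under 0.05, median -0.09), nor did any of 10 regulators of mitochondrial biogenesis (1 higher and 2 lower, median -0.09). Of the 13 protein-coding genes of the mitochondrial genome none passed (0 higher and 1 lower, median -0.09). Of 7 family genes outside the rule, Slc25a20 was the single one that passed (2 higher and 1 lower at an unadjusted p under 0.05, median 0.10). Ucp2 was 1.33-fold higher in Arhgef11Sglt2 kidneys (limma adjusted p = 0.075). Its groups did not overlap, as for 6.2% of all genes in that direction.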

How the data were processed

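Per the labels' protocols, mRNA of 8 kidney samples was prepared with a stranded TruSeq kit and sequenced as paired ends. Salmon 1.10.0, DESeq2 and the build GRCm39 are named in the submitters' processing notes; no annotation or gene filter is stated. Per the values, the authors deposited variance-stabilized log2 expression: none is a raw count and all 8 columns share a minimum of 8.1275, taken as a count of 0. With c that minimum on the linear scale (279.7) and z a linear value, the normalized count is (z - c) squared over z. Low values lay only partly on whole multiples of a step (31.4% to 54.4% within 0.02 of one per library), so no count model was used. Tests, log2 differences, SEs and intervals are on the deposited scale, while folds are ratios of mean normalized counts.

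limma 3.58.1 (R 4.3.3), with group as the only term and variances that follow the mean, was run on all 15948 genes, and tested on simulated data. The permutation test enumerated the 56 splits, two-sided. Carriers picked by the naming rule whose p from it is not printed had values from 0.0357 to 0.75. Symbols matched 15902 identifiers (99.71%). No row of the deposited values matched Slc25a2, Slc25a18, Slc25a31, Slc25a41 or Slc25a54, so these were not analysed here. Transcript lengths and shared 31-base words came from GENCODE M21 (GRCm38). Values in every library are given for carriers past the threshold or without overlap, and for the 2 with the smallest p in each role list. Other carriers named with values were picked afterwards. In all, 1 carrier and 1 enzyme are counted but not reported here. The members and lists were chosen with earlier results of these data known. Protein sequences were not used here. Alternatives covered scaling, pseudocounts, a filter, blocks, variance settings, weights, the threshold and each library left out.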

Additional observations from a re-analysis of the deposited data

How the results depend on the processing

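The count of carriers past the threshold, 1 in limma, was 2 on log2(normalized count + 1), on log2(normalized count + 10), with a mean of at least 100 normalized counts required, with library range as a block and without a variance trend, each time by the addition of Slc25a13. It was 4 with sample weights (Slc25a21, Slc25a22, Slc25a28 and Slc25a34), 3 at a threshold of 0.1 and 1 with equal totals and with robust variance. Leaving out single libraries gave 0 to 4: 4 without Arhgef11Sglt2 replicate 1, 2 without replicate 2 of that group, and 0 in limma without its replicate 3, without Sglt2Cre replicate 4 or without Sglt2Cre replicate 5 (7, 11 and 12 carriers at an unadjusted p under 0.05). The count over all genes, 354, was 874 with sample weights, 1038 at a threshold of 0.1 and 24 to 1334 with single libraries left out (1334 without Arhgef11Sglt2 replicate 1, 45 without its replicate 3, and 187, 135, 24 and 76 without Sglt2Cre replicates 1, 3, 4 and 5). With the replicate number as a block, limma called 0 carriers and 0 genes (9 carriers and 2166 genes at an unadjusted p under 0.05), and Slc25a21 had an adjusted p of 0.204. That block has 5 levels, so Sglt2Cre replicates 4 and 5 had no partner and added nothing to the group difference. It left fewer residual degrees of freedom than the 6 without a block, so its counts cannot be set directly against the others. The labels do not say whether the numbers pair the samples. Same-numbered libraries had correlations of -0.175, -0.088 and -0.007 in their deviations from the group means, too few values to settle it. The median log2 difference of the carriers ran from -0.03 to 0.023 with single libraries left out, positive without Arhgef11Sglt2 replicate 1 (and, at 0.012, with sample weights). Of the 16 carriers picked by the naming rule, 14 kept their direction in the settings run (Slc25a47 was below the minimum mean of 100 and has no value there). Slc25a14 (otherwise -0.021) ran from -0.072 to 0.026 with single libraries left out, positive without Arhgef11Sglt2 replicate 2 or Sglt2Cre replicate 1. Slc25a46 (0.049) ran from -0.021 to 0.106, negative without Arhgef11Sglt2 replicate 3. The cause of these shifts was not tested. Small group sizes and shared words (Slc25a5) limit precision.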
